A study of Rattus norvegicus with 4 samples.

Results

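The genes described here encode the contractile apparatus of visceral smooth muscle: the actins Acta2 and Actg2, the tropomyosins Tpm1 and Tpm2, the actin-binding proteins Tagln and Cnn1, the intermediate filament protein desmin (Des), the myosin heavy chain Myh11, the regulatory myosin light chain Myl9 and the kinase Mylk that phosphorylates it. They were chosen by name, and each was taken as the row of the deposited table whose RefSeq transcript maps to that symbol, with the highest mean where a gene had several rows. Of the 10 genes, 7 had a value on all 4 arrays, out of 6968 named genes with a value. Myh11, Mylk and Myl9 had no row under these names and are not analysed here, so myosin itself and its kinase are missing from the results below.

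RNA came from colon tissue of 4 male Sprague Dawley rats, 2 in each of the control and MSCT groups, and every rat had an array of its own (NimbleGen, 1 color). The MSCT rats were given TNBS, a hapten that causes colitis, into the colon and then mesenchymal stem cells (MSCs) labeled with green fluorescent protein through the tail vein. The control rats received no MSCs; their descriptions call them normal, whereas the study's text calls them IBD rats, and so they are named the control group. The rats' age is not given in the sources used here, and the day of the chips differs between the study's methods and results. If the control rats were normal, MSC transplantation and colitis cannot be told apart.

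Smooth muscle of the gut wall contracts when calcium enters the cell, binds calmodulin and activates myosin light chain kinase, which lets myosin pull on actin filaments. Tropomyosin, calponin (Cnn1) and transgelin (Tagln) lie along these filaments, and desmin ties them to the dense bodies of the cell. Most of these genes are controlled by serum response factor (SRF) and its partner myocardin, which act through the CArG box. In the colon wall, Actg2 marks the muscle layers, while Acta2, Tagln and Myh11 are also made by the muscle of blood vessels. Acta2 and Tagln are made by myofibroblasts as well.

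The promoter sequences of a contractile actin and of the muscle actin with the largest difference are given first, because the report returns to both. The 150 bases before the RefSeq start sites (GRCr8) are shown from 5′ to 3′ on the minus strand, the strand of both genes. Capitals mark CArG boxes, 10-base motifs with CC at the 5′ end, GG at the 3′ end and 6 bases between them that are all A or T, or all but 1. The Acta2 stretch is chr1:241172504-241172653 and that of Acta1, the skeletal muscle actin, is chr19:68784195-68784344.
Acta2: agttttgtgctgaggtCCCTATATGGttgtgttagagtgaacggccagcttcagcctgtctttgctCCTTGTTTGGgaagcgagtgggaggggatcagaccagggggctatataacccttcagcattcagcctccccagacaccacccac
Acta1: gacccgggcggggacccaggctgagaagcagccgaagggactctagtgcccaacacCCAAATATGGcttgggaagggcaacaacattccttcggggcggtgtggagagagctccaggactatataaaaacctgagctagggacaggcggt
Both boxes of Acta2, which begin 134 and 84 bases before the start, have 1 base other than A or T in the middle. The box of Acta1 at 94 bases before the start has none. Further boxes of Acta1, outside the stretch shown, begin 222 and 171 bases before the start, and each has 1 base other than A or T in the middle. RefSeq promoter windows, which run from 250 bases before the start to 50 after it, were found for 7 of the 10 genes (Acta2, Actg2, Cnn1, Des, Mylk, Tpm1 and Tpm2). Of these, only that of Acta2 held such a box. Over all 33469 windows, 1.64% held a box with a pure A and T middle and 9.42% held a box of either kind. The motif reads the same on both strands, and a match is a description of the letters only.

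Intensities of the deposited table are on a linear scale and were used as log2 values. The array medians lay between 848 and 893. All 18350 measured rows entered the comparison of the groups by limma, which fits a linear model to each row and borrows variance across rows. With 2 rats a group, the smallest two-sided p of an exact permutation test is 0.333, so the small number of arrays sets the precision throughout. In bulk tissue, fewer cells of a type and less RNA per cell cannot be told apart. The epithelial markers Cdh1 (from 23688 to 27090) and Lgals4 (from 24543 to 29580) were bright on every array. Both were named after their values were seen, and they do not tell the colon from other parts of the gut.

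None of the 7 measured contractile genes passed limma's test between the MSCT and control groups. Their differences (MSCT minus control) ran from -0.13 (Tpm1) to 0.08 (Cnn1) on the log2 scale, with a median of 0.01, and 5 genes lay above 0 and 2 below (55.8% of the named genes lay above 0). By limma, 0 of the 7 had an unadjusted p under 0.05, where 12.3% of the named genes did, and 0 passed the study's screen of a p under 0.05 and more than 2-fold, where 4.91% of the named genes did. The limma p-values lay between 0.507 and 0.954, and those adjusted over all rows between 0.793 and 0.988. The 5 to 2 split turned to 2 above and 5 below after quantile normalization, so no direction is given to the genes as a group.

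Actg2 (NM_012893), the actin of enteric smooth muscle, had the intensities 30867 and 31049.8 in the control rats and 32444 and 30118 in the MSCT rats. The control arrays lay between the MSCT arrays. The log2 means were 14.92 ± 0.01 and 14.93 ± 0.08 (SD, n = 2 each), and the difference was 0.01 (standard error 0.18, 95% interval -0.48 to 0.50, limma adjusted p = 0.983).

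Acta2 (NM_031004), the actin of vascular muscle and myofibroblasts, had the intensities 41527 and 30667 in the control rats and 34948 and 34373 in the MSCT rats. Here the MSCT arrays lay between the control arrays, which were 1.35-fold apart. The difference was -0.04 (standard error 0.23, 95% interval -0.66 to 0.58, limma adjusted p = 0.955). The proteins of the muscle actins are nearly identical, and whether the probes of one also bind the transcript of another was not tested.

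**Figure D1:**
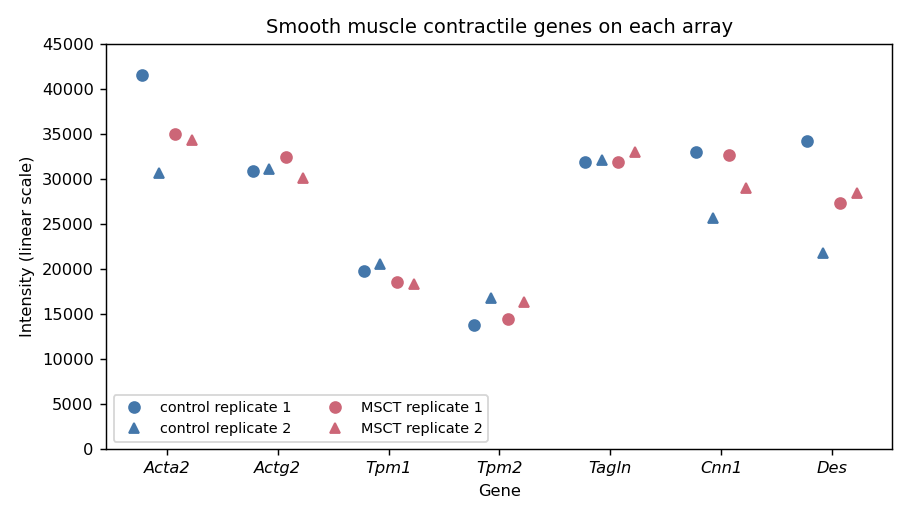
Intensity (linear axis that starts at 0) of the 7 measured contractile genes on each of the 4 arrays, 1 point per rat, with control arrays in blue and MSCT arrays in red (circles for replicate 1, triangles for replicate 2). The arrays of the 2 groups overlap in every gene but Tpm1, and the widest gap is that between the control arrays for Des (34212 and 21751); heights of different genes depend on their probes and are not compared.

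Tpm2 (NM_001024345), a tropomyosin abundant in smooth muscle, had the intensities 13799 and 16765 in the control rats and 14409 and 16347 in the MSCT rats. In both groups replicate 2 was the brighter array, by 1.21-fold and 1.13-fold, and the MSCT arrays lay between the control arrays. The difference was 0.01 (standard error 0.21, 95% interval -0.55 to 0.58, limma adjusted p = 0.988).

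Tpm1 is spliced into many transcripts, which differ between muscle and nonmuscle cells, and 9 of them had a row. The row taken for the gene (NM_001034073) had the intensities 19759.8 and 20526 in the control rats and 18509 and 18280.4 in the MSCT rats. This was the only contractile gene whose groups did not overlap, against 47.9% of the named genes. Its difference was also the largest in size of the 7, at -0.13 (standard error 0.18, 95% interval -0.61 to 0.35, limma adjusted p = 0.793). By the methods' t-test, which uses the spread of each row alone, the same difference had an unadjusted p of 0.0455, where 11.0% of the named genes had a p under 0.05, and no row passed after Benjamini-Hochberg adjustment.

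Over the 9 rows of Tpm1, the differences ran from -0.40 to 0.17, with 7 rows lower and 2 higher in the MSCT group. By limma, 0 of the 9 had an unadjusted p under 0.05 (smallest p 0.110), though 1 did without control replicate 2. The largest difference was that of NM_001034072, with 4992 and 5507 in the control rats and 3708 and 4277 in the MSCT rats. The arrays of its groups did not overlap, and the difference was -0.40 (standard error 0.20, limma adjusted p = 0.509). In NM_001034075, the dimmest of the 9 rows, control replicate 1 stood at 2742 and the other arrays at 1598, 1593 and 1614. The difference of -0.38 (standard error 0.32) in that row lay in this single array. NM_019131 and NM_001034068 lay above 0, by 0.17 each. The transcripts share most of their exons, so these rows are not independent of each other.

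**Figure D2:**
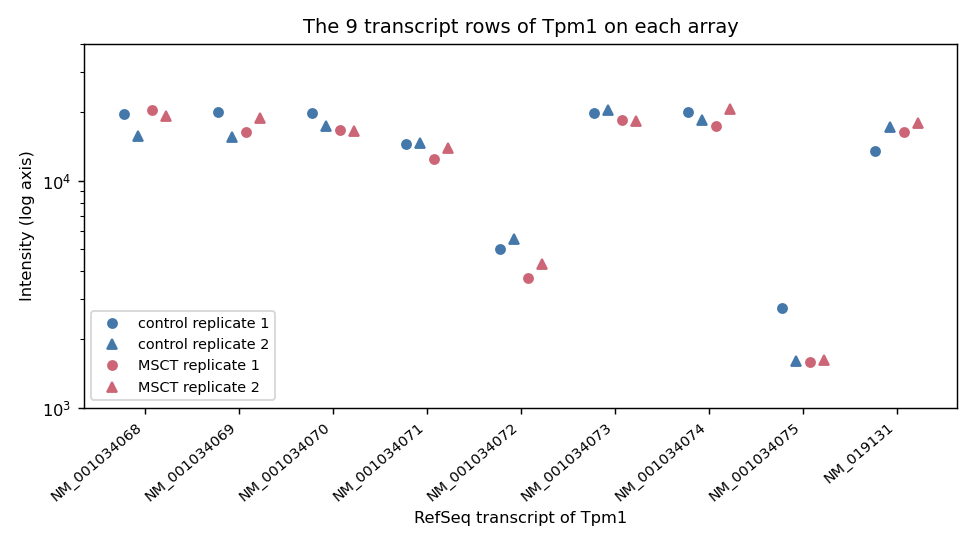
Intensity (log axis) of the 9 Tpm1 transcript rows on each of the 4 arrays, 1 point per rat, with control arrays in blue and MSCT arrays in red (circles for replicate 1, triangles for replicate 2). NM_001034072 shows both MSCT arrays (3708 and 4277) below both control arrays (4992 and 5507), and NM_001034075 shows control replicate 1 (2742) apart from the other arrays.

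Tagln (NM_031549), which encodes transgelin and is widely used as a marker of smooth muscle, was the most even of the 7 genes. Its intensities were 31876 and 32125 in the control rats and 31881 and 33044 in the MSCT rats. The arrays of each group were 1.01-fold and 1.04-fold apart, and MSCT replicate 1 lay between the control arrays. The difference was 0.02 (standard error 0.18, 95% interval -0.46 to 0.50, limma adjusted p = 0.973).

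Cnn1 (NM_031747), calponin of differentiated smooth muscle, had the intensities 33004 and 25693 in the control rats and 32634 and 29038 in the MSCT rats. The MSCT arrays again lay between the control arrays. The difference was 0.08 (standard error 0.22, 95% interval -0.52 to 0.68, limma adjusted p = 0.908).

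Des (NM_022531), the muscle intermediate filament, had the intensities 34212 and 21751 in the control rats and 27298 and 28404 in the MSCT rats. The control arrays were 1.57-fold apart, the widest gap among the 7 genes, and the MSCT arrays 1.04-fold. The log2 means were 14.74 ± 0.46 and 14.77 ± 0.04 (SD, n = 2 each). The difference was 0.03 (standard error 0.28, 95% interval -0.73 to 0.79, limma adjusted p = 0.976). Without control replicate 1 it was 0.36, and without control replicate 2 it was -0.30.

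The spread between the rats of 1 group was wider than the difference between the groups for most of these genes. The gap between the control arrays exceeded the between-group difference in 4 of the 7 genes (Acta2, Tpm2, Cnn1 and Des), and the gap between the MSCT arrays did so in 5. Across genes the control gap had no common direction. Control replicate 1 was the brighter control array for Acta2, Cnn1 and Des, and control replicate 2 for Tpm1 and Tpm2 and, by about 1.01-fold, for Actg2 and Tagln. The median fold between replicates over the 7 genes was 1.21 for control and 1.04 for MSCT.

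**Figure D3:**
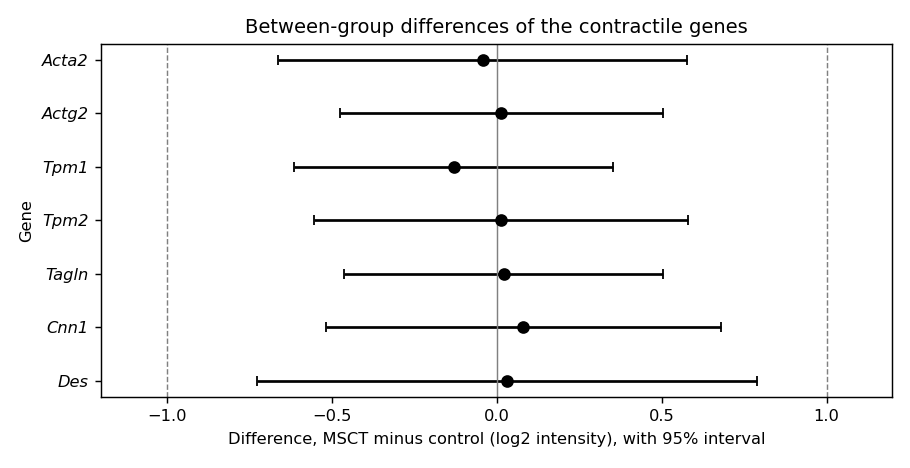
Difference between the groups (MSCT minus control, log2 intensity) of the 7 measured contractile genes, with points at the limma estimate and bars for the 95% interval. All intervals cross 0 and lie inside the dashed lines at 2-fold, between -0.73 and 0.79.

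Under limma's model, which borrows variance across rows, the intervals set the size of change that these arrays leave room for. On the linear scale the lower limits lay between 0.603-fold and 0.725-fold and the upper limits between 1.28-fold and 1.73-fold. A difference of 2-fold, the limit of the study's screen, thus lay outside the limma interval of each of the 7 genes. Smaller differences in either direction did not. An interval from the spread of the row alone would be wider for Des, whose control SD was 0.46, and is not given here.

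The contractile genes lay at the upper end of the intensity range, with 98.4% to 99.9% of all rows dimmer, and 5 of them were among the 100 brightest rows. Their highest intensity was 41527, that of Acta2 on control replicate 1, where the highest of any row on that array was 46020.4. Of the 286 rows at least as bright as Tpm2, the dimmest of the 7, 3.5% had an unadjusted limma p under 0.05 and 1.05% passed the screen, against 12.0% and 4.63% of all rows. The median size of the difference was 0.11 in these bright rows, 0.28 over all rows and 0.03 over the 7 genes. Differences as large as 1.69 were seen among the bright rows. Whether the scanner's upper range narrowed the differences of the contractile genes was not tested.

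**Figure D4:**
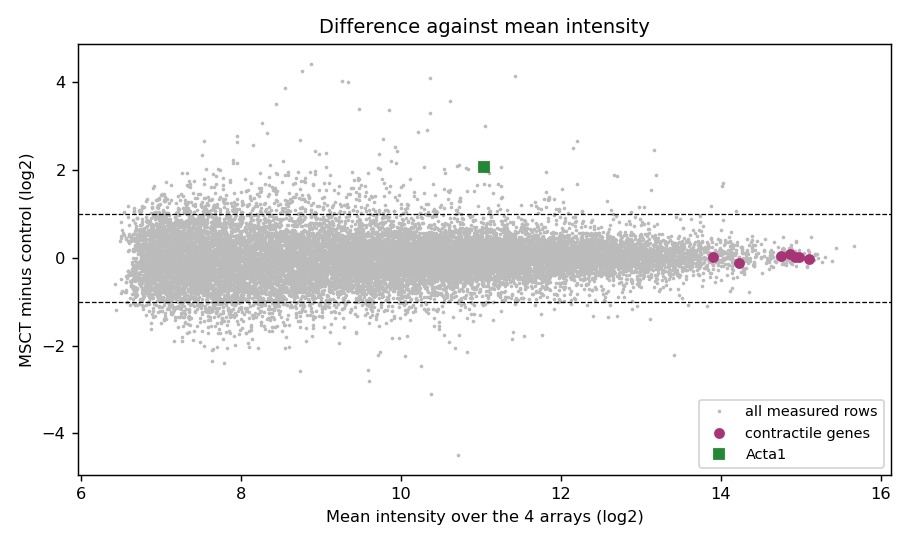
Difference between the groups (MSCT minus control, log2) against mean intensity over the 4 arrays (log2) for all 18350 measured rows in grey, the 7 contractile genes in purple and Acta1 as a green square, with dashed lines at 2-fold. The contractile genes sit at the bright end between -0.13 and 0.08, and Acta1 lies at 2.06.

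Of 35 genes listed that anchor and brace the contractile filaments, 15 were measured, 5 higher and 10 lower in the MSCT group, with a median difference of -0.15. With single arrays removed this median lay between -0.33 with control replicate 2 removed and 0.06 with control replicate 1 removed, and that of all named genes was 0.05. By limma, 1 of the 15 had an unadjusted p under 0.05, a share below the 12.3% of the named genes, and 0 passed the screen. The gene was Dmd, which encodes dystrophin, the link between the muscle cytoskeleton and the cell membrane. Its intensities were 1480 and 1141 in the control rats and 869.6 and 700.1 in the MSCT rats. The groups did not overlap, and the difference was -0.74 (standard error 0.24, limma adjusted p = 0.380). With any array but control replicate 2 left out, its unadjusted p was above 0.05, and without control replicate 2 the count was 2.

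The 15 genes, like Acta2, Cnn1 and Des, were brightest in sum on control replicate 1. Their summed intensity was 148985 and 119930.2 in the control rats and 128659 and 127383 in the MSCT rats, and that of the 7 contractile genes was 205044 and 178578 against 192122 and 189604.

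Genes of calcium handling drive or restrain contraction. Of 19 listed, 14 were measured, 5 higher and 9 lower, with a median difference of -0.37 that lay between -0.57 with control replicate 2 removed and -0.23 with control replicate 1 removed. By limma, 4 had an unadjusted p under 0.05, all of them lower (5.44% of the named genes were called in that direction), and 0 passed the screen. Cacnb3, a subunit of voltage-gated calcium channels, had the smallest p. Its intensities were 1873 and 2121 in the control rats and 1216 and 1257 in the MSCT rats, so that the groups stood apart. The difference was -0.69 (standard error 0.19, limma adjusted p = 0.338).

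The other genes of these 4 were named after their values were seen. Cacna1c, the pore of the L-type calcium channel through which calcium enters the muscle cell, had 1379.7 and 1529.8 in the control rats and 1019 and 724.8 in the MSCT rats (difference -0.76, standard error 0.25). Atp2b4, a calcium pump of the cell membrane, had 9414 and 8266 against 5946 and 5357 (difference -0.64, standard error 0.20). Kcnmb1, the smooth muscle subunit of the large-conductance potassium channel, had 13268 and 11313 against 8542 and 8400.2 (difference -0.53, standard error 0.20). In each of the 4 genes both MSCT arrays were below both control arrays. Close relatives of Kcnmb1 and Atp2b4 went the other way. Kcnma1, the pore of the same potassium channel, differed by 0.42 (standard error 0.22). Atp2b1, a further calcium pump of the cell membrane, differed by 0.28 (standard error 0.19). In both, the MSCT arrays were above the control arrays, with an unadjusted limma p above 0.05. The groups did not overlap in 9 of the 14 genes in either direction, where they did not in 47.9% of the named genes. Kcnmb1 had an unadjusted limma p above 0.05 with equal array medians, and Cacna1c had an unadjusted p of 0.0981 by the methods' t-test. With an array left out, few of the 4 genes kept a p under 0.05: Cacnb3 alone without control replicate 1, Atp2b4 alone without control replicate 2, Cacna1c alone without MSCT replicate 1 and none without MSCT replicate 2. Without control replicate 2 the list held 3 such genes, and the others were not among the 4.

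For the control of myosin phosphorylation, 19 of 24 genes were measured, 5 higher and 14 lower, with a median of -0.14 (between -0.20 with control replicate 2 removed and -0.06 with control replicate 1 removed). By limma, 0 had an unadjusted p under 0.05, and the methods' t-test gave none either. Pde5a, the phosphodiesterase that breaks down the relaxing messenger cGMP, had the smallest p, with a difference of -0.66 (standard error 0.26, limma adjusted p = 0.430). Without control replicate 2, 1 gene had a p under 0.05. Of 20 receptors that contract or relax gut muscle, 15 were measured, 7 higher and 8 lower, with a median of -0.18 (between -0.40 with control replicate 2 removed and -0.03 with control replicate 1 removed). No receptor had an unadjusted p under 0.05, whether in limma or in the methods' t-test, but without control replicate 2 the limma count was 4. Ptger3, a prostaglandin receptor, had the smallest p (difference -0.63, standard error 0.24, limma adjusted p = 0.419).

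Of 23 transcription regulators of smooth muscle listed, 11 were measured. By limma, 1 was higher and 1 lower with an unadjusted p under 0.05 (6.82% and 5.44% of the named genes). The screen was passed by 1, where 4.91% of the named genes passed it. Srf, Mrtfa and Mrtfb had no row under these names and are not analysed here. Myocd, which encodes myocardin, had the intensities 955.0 and 916.1 in the control rats and 704.2 and 685.4 in the MSCT rats. The groups did not overlap, and the difference was -0.43 (standard error 0.18, limma adjusted p = 0.459). Its unadjusted p was 0.0713 in limma and 0.00689 in the methods' t-test.

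Tgfb1, a growth factor that induces contractile genes in mesenchymal cells, was the regulator past the screen. It had 560.0 and 626.7 in the control rats and 1143 and 1589.7 in the MSCT rats, so that the difference was 1.19 (standard error 0.25, limma adjusted p = 0.289). Without MSCT replicate 2 the difference was 0.95, below the screen. Smad3, which carries the signal of TGF-beta receptors to the nucleus, was the lower one (-0.71, standard error 0.20, limma adjusted p = 0.340), but with any array except MSCT replicate 1 left out its unadjusted p was above 0.05. The receptor gene Tgfbr1 differed by -0.64 (adjusted p = 0.513). The differences of the other regulators were -0.47 for Mef2d, -0.44 for Tead3, 0.17 for Gata6, -0.14 for Notch3, -0.05 for Mef2a, -0.04 for Klf5 and 0.03 for Klf4, with adjusted p-values from 0.430 to 0.965.

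The striated muscle genes held the muscle actin with the largest difference. Of 33 genes listed, 15 were measured, 11 higher and 4 lower, with a median difference of 0.34 (between 0.09 with control replicate 2 removed and 0.49 with control replicate 1 removed). By limma, 2 were higher and 1 lower with an unadjusted p under 0.05 (6.82% and 5.44% of the named genes), and 1 passed the screen. Acta1, whose promoter is printed above, had the intensities 1279 and 831.3 in the control rats and 6013 and 3095 in the MSCT rats. Both MSCT arrays were above both control arrays, and the difference was 2.06 (standard error 0.42, limma adjusted p = 0.289), while the methods' t-test gave a p of 0.0687. It was 1.59 without MSCT replicate 1 and 2.54 without MSCT replicate 2, the lowest and highest values with 1 array removed. Acta2 and Actg2 differed by -0.04 and 0.01 on the same arrays. Actc1, the cardiac actin, differed by 0.38 (adjusted p = 0.528). The other genes with an unadjusted p under 0.05 were Actn3, an alpha-actinin of fast fibers (0.71), and Tnni1, a troponin of slow fibers (-0.73). Apart from Acta1, the differences of the list ran from -0.73 to 0.87 (Tnnt3, a troponin of fast fibers).

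Nonmuscle isoforms of the same protein families were mostly higher in the MSCT group. Of 14 listed, 10 were measured, 9 higher and 1 lower, where 55.8% of the named genes were higher. The median difference of the list was 0.15 (0.28 without control replicate 2). By limma, 1 of the 10 had an unadjusted p under 0.05, where 12.3% of the named genes did, and 0 passed the screen. Vim, which encodes vimentin, the intermediate filament of mesenchymal cells and leukocytes, had 10067 and 8698 in the control rats and 14422 and 15543 in the MSCT rats. Its difference was 0.68 (standard error 0.20, limma adjusted p = 0.343), beside 0.03 for Des, the muscle intermediate filament. With any array but control replicate 1 left out, the unadjusted p of Vim was above 0.05. Myh10, a nonmuscle myosin, was the exception (-0.07). The reference genes Actb, Gapdh, B2m and Hprt1 differed by 0.12, -0.19, -0.17 and 0.44, and 0 of the 4 had an unadjusted limma p under 0.05 (1 by the methods' t-test, Hprt1).

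**Figure D5:**
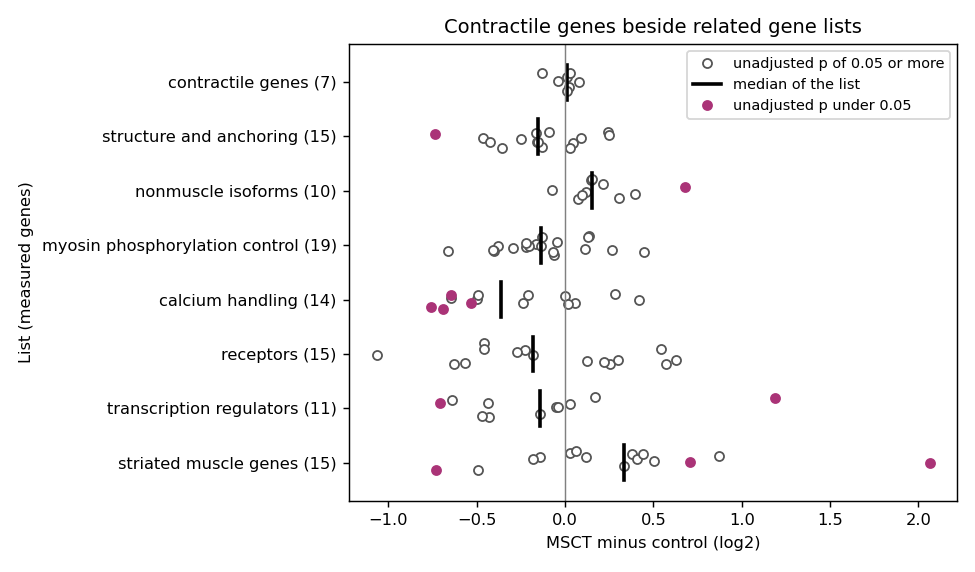
Differences between the groups (MSCT minus control, log2) of the genes in 8 lists, 1 point per measured gene, filled where the unadjusted limma p was under 0.05, with a black bar at the median of each list. The contractile genes lie within 0.13 of 0, the calcium handling genes have a median of -0.37 and Acta1 stands at 2.06 among the striated muscle genes.

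Markers of other cell types of the colon wall were measured on the same arrays. All 9 measured markers of enteric neurons, which lie between and beside the muscle layers, were lower in the MSCT group (5 with an unadjusted limma p under 0.05, a call that 5.44% of the named genes had in that direction). Elavl4, an RNA-binding protein of neurons, passed the screen at -1.06, and ran from -1.46 without control replicate 2 to -0.67, under 2-fold, without control replicate 1. The 5 became 1 without control replicate 1, 1 without MSCT replicate 1, 2 without MSCT replicate 2 and 3 without control replicate 2. The summed intensity of the 9 markers was between 12560.0 and 13624 in the control rats and between 8118 and 8844 in the MSCT rats. Of 15 leukocyte markers, 6 were measured, all of them higher (3 at that p, where 6.82% of the named genes were higher at it), with sums of 3143 to 3442 against 6044 to 7057. Cd68 and Csf1r of macrophages passed the screen at 1.29 and 1.00. Csf1r lay at its limit, at 0.96 without control replicate 2 and also under 2-fold without MSCT replicate 2, and between 1 and 3 of the 6 markers passed with an array left out. Of 8 goblet cell markers listed, only 2 were measured. Both of these passed the screen (Zg16 at 2.65 and Tff3 at 1.49), which 4.91% of the named genes passed. Of 6 measured markers of enteric glia, Gfra3 passed it at 1.29, though its unadjusted p was above 0.05 without control replicate 2, without MSCT replicate 1 and after quantile normalization, and the others differed by at most 1.06 in size.

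Of 16 measured epithelial markers, 1 had an unadjusted p under 0.05 (Elf3, an epithelial transcription factor, at -0.72), with a median difference of 0.14 (0.21 without control replicate 2) and sums of 309251 to 314198 against 330384 to 340539. Of 7 measured pericyte markers, 0 had one by limma or by the plain test of the methods (median -0.09, between -0.37 with control replicate 2 removed and 0.21 with control replicate 1 removed, and sums of 25913 to 36034 against 25009 to 29748). With equal array medians or quantile normalization, 1 did by limma. Of 12 fibroblast markers, 4 were measured and 1, Col1a2 (0.62), had such a p by limma. Their median was 0.32 (between 0.07 with control replicate 2 removed and 0.70 with control replicate 1 removed), with sums of 26068 to 39945 against 43080 to 45099. With any array but control replicate 1 left out, no epithelial or fibroblast marker had a limma p under 0.05. The part of all these cells in the values of the contractile genes was not tested. Of 6 listed markers of the interstitial cells of Cajal, the pacemakers of gut muscle, only Kit and Gja1 had a value (differences 0.18 and 0.73). Other cells make both of them. By limma, 1 of the 2 had an unadjusted p under 0.05, though not in every alternative, where 12.3% of the named genes did.

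Genes with the array profile most like the average of the 7 contractile genes were sought by the root mean square distance of log2 values, each centred on its mean, over the 4 arrays, among the 6771 named genes whose own difference was at least as large in size as the median difference of the 7, which was 0.01 with its sign. The nearest were Setsip, Rad17, Matr3, Exoc2 and Vcpip1, at distances of 0.014 to 0.018, and 96 lay within 0.05. None of these 5 was among the 5 nearest after quantile normalization, or without control replicate 1, or without MSCT replicate 2.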

How the data were processed

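The authors scanned one-color Cy3 NimbleGen arrays with a GenePix scanner and extracted them with NimbleScan; the submitters' processing notes also name RMA, with no role given. The deposited table holds 1 linear intensity per RefSeq transcript and array. The background correction, the combination of probes and the rule for blank rows are not given in the sources used here. A value stood on all 4 arrays in 18350 of 26420 rows, and the other 8070 rows were blank throughout. RefSeq genes of the assembly GRCr8 gave a name to 7068 measured rows (38.5%).

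Intensities were converted to log2 with no pseudocount, scaling or filter. With lmFit and eBayes, limma (version 3.58.1, under R 4.3.3) compared MSCT with control over all rows, with Benjamini-Hochberg adjustment over all of them. No row passed an adjusted p of 0.05 (smallest 0.257). The methods' t-test stands for the one-way analysis of variance of the study's statistics section, and its smallest adjusted p was 0.0550. The fit was tested on simulated data. Other scalings, filters, variance models and single arrays left out were tried as alternatives. Tables and figures were made in Python 3.11.15 (pandas 2.3.3, matplotlib 3.10.9). RefSeq promoter windows of GRCr8 were searched for CArG boxes.

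The contractile genes and the other lists were chosen with earlier results of these data known. Named are all 10 contractile genes, measured transcription regulators, members of the other muscle lists past the screen or, where none passed, the gene with the smallest p, cell type markers past the screen, reference genes and the genes nearest in profile. Cacna1c, Atp2b4, Kcnmb1, Kcnma1, Atp2b1, Actc1, Actn3, Tnni1, Tnnt3, Myh10, Kit, Gja1, Col1a2, Elf3, Cdh1 and Lgals4 were named outside this rule, after their values were seen. Replicates are separate rats. The labels do not say whether a replicate number marks a shared litter or day, so the numbers were not used to pair the arrays in the main comparison.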

Additional observations from a re-analysis of the deposited data

How the results depend on the processing

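Each result was computed again under other scalings, filters and variance models, with the methods' t-test, with the replicate block and without each array in turn. The count of contractile genes with an unadjusted p under 0.05 stayed at 0 except for 1 by the methods' t-test, and none passed the screen. Quantile normalization made 5 genes lower, with reversed differences for Actg2 (-0.034), Tagln (-0.017), Tpm2 (-0.029) and the regulator Klf4 (-0.031). Equal array medians gave 2 genes without overlap. With an array left out, differences of either sign were seen for Acta2 (-0.26 to 0.18), Actg2 (-0.040 to 0.068), Tagln (-0.0054 to 0.046), Cnn1 (-0.10 to 0.26), Des (-0.30 to 0.36) and Tpm2 (-0.13 to 0.15), but not for Tpm1 (-0.16 to -0.10). Among the regulators they were seen for Mef2a (-0.22 to 0.12), Gata6 (-0.046 to 0.38), Klf4 (-0.013 to 0.065), Klf5 (-0.12 to 0.043) and Notch3 (-0.59 to 0.31). In the same fits, 2 to 4 contractile genes were lower and 2 to 6 did not overlap. A group left with 1 array overlaps the other group less readily. The 47.9% of the named genes without overlap holds for all 4 arrays, and no such share is given for these fits. The 2 to 6 are therefore not read as a separation of the groups. Of the 5 nearest profiles, 0 to 1 were shared in these fits. Of these 5, equal array medians shared 3 and quantile normalization 0, in alternatives chosen after seeing the data. The cause was not tested.

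Same-numbered arrays deviated from their group means with a correlation of 0.23 over rows, from 2 pairs. With the replicate block, the contractile genes gave the same counts (0 with a p under 0.05, 2 lower, 1 without overlap). Among the other genes named, the block took the limma p of Kcnmb1 to 0.0578 and that of Ptger3 below 0.05, and 3 calcium handling genes, 3 receptors and 0 fibroblast markers then had a p under 0.05. For single genes beyond the contractile ones, 353 of the recomputed values kept their side of the threshold, 35 lost and 28 gained a p under 0.05 and 9 reversed. Fewer arrays per group make a test weaker, and limma intervals of up to 1.73-fold limit what can be seen.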
